A study of Rattus norvegicus with 6 samples.

Results

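The transcription factor NF-kB, the proteins that hold it back and the adhesion molecule gene Icam1 were followed in the kidneys of diabetic rats with and without Shenqi Jiangtang Granule (SJG), a granule made from herbal extracts. The genes were taken by name, with earlier results of these data known. They comprise the subunit genes Nfkb1, Nfkb2, Rel, Rela and Relb, the inhibitor genes Nfkbia, Nfkbib, Nfkbie and Tnfaip3, and Icam1. Of these 10 genes, 9 had a transcript cluster of their own, the probe set that the array reads as 1 gene, among 18166 genes tested. Tnfaip3, whose protein A20 takes apart the ubiquitin chains that activate the pathway, had none under this rule and was not analysed here. The study named Icam1, and also Itgam, among the main nodes of a gene network drawn from these arrays, so their direction here is not independent evidence.

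The SJG group comprised 3 arrays of Sprague Dawley rats with diabetes that were given the granule, and the diabetic group 3 arrays of Sprague Dawley rats with diabetes that were given saline, all labelled as 17 weeks of age. By the study's methods the rats were male, diabetes was induced with streptozotocin, a toxin of insulin-producing cells at 60 mg/kg, and the RNA came from the kidney cortex. The study's text also names a diet rich in fat as part of the model. The labels give no dose, and the text of the study assigns the arrays to the high dose of 800 mg/kg/day, given for 8 weeks. No array of a rat without diabetes was analysed here. The labels number the arrays of a group without naming animals. The p-values therefore set a change against a spread between arrays, partly estimated from all genes, that may be partly technical. The number in a bracketed title code, shared within each group, cannot be told apart from SJG itself. The arrays correlated at 0.952 to 0.978 with each other, had median log2 signals of 4.68 to 4.88 with SJG and 4.70 to 4.85 in the diabetic group, and carried the markers of kidney tubules, with proximal tubule genes averaging 10.5 to 10.9 with SJG and 10.6 to 10.8 in the diabetic group on the log2 scale.

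NF-kB is a dimer of proteins of the Rel family. In a resting cell, inhibitor proteins of the IkB family keep it in the cytoplasm, and signals from receptors for tumour necrosis factor, interleukin-1 or bacterial products lead the IKK kinase complex to mark the inhibitors for destruction. The freed dimer then switches on genes of inflammation and cell survival, among them Icam1 and also the genes of its own inhibitors, which close a feedback loop. In the diabetic kidney the pathway is known for its part in leukocyte recruitment, in which Icam1 on the vessel wall and on tubule cells binds integrins of leukocytes. In all that follows, the values are mRNA signals, which do not measure the activity of the protein.

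Icam1 and Nfkbia, which encodes the inhibitor IkB-alpha, were lower in the SJG group, by 2.03-fold and 1.75-fold. None of the 9 genes was higher. All 9 had a log2 fold change below 0, as had 49.7% of all genes tested, and this also held after quantile normalization or median centring of the arrays. The 7 genes that were not called, which means that they did not reach both an unadjusted limma p under 0.05 and a fold change above 1.5, had log2 fold changes between -0.51 and -0.09, and the median over the 9 genes was -0.42, against 0.00 over all genes. In the counts that follow, a gene given as lower or higher is one called in that direction. The 2 of 9 genes called lower compare with 2.12% of all genes tested called lower and 3.11% called in either direction. Icam1 was already in the study's network from these arrays, and the genes were chosen with earlier results known. These counts therefore describe the genes only. Over all genes, 385 were called lower and 180 higher, or 319 and 264 where arrays were centred on their medians. After adjustment for all genes limma left 0 genes under 0.05, or 0% of those tested, while 6.24% of genes, and 3 of the 9, had an unadjusted p under 0.05. In a piece of kidney cortex, fewer cells that express a gene and less of its mRNA per cell cannot be told apart.

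**Figure D1:**
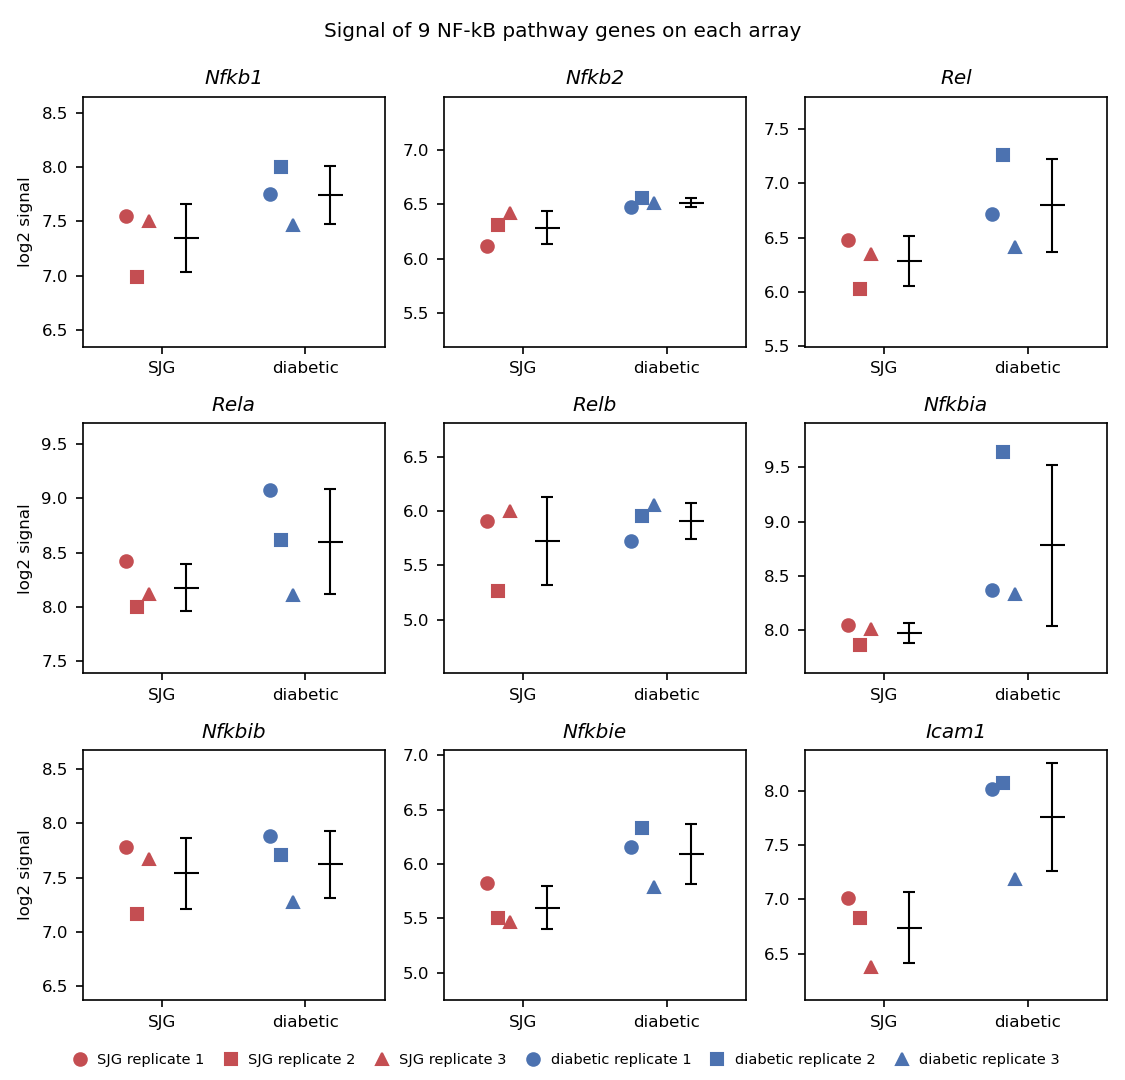
Log2 signal of the 9 genes on each array, with SJG arrays in red at the left and diabetic arrays in blue at the right of each panel and a symbol for each replicate number. Horizontal marks and bars give the mean and SD of 3 arrays, and every panel spans the same number of log2 units. Icam1, Nfkbia and Nfkb2 have all SJG arrays below all diabetic arrays.

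Icam1 encodes the surface protein to which the leukocyte integrins LFA-1 and Mac-1 bind. Its log2 signal (transcript cluster 17842370) was 7.01, 6.83 and 6.38 in SJG replicates 1 to 3, against 8.02, 8.07 and 7.19 in diabetic replicates 1 to 3. Every SJG array lay below every diabetic array, and diabetic replicate 3 was the lowest diabetic array, nearer to SJG replicates 1 and 2 than to the other diabetic arrays. The means were 6.74 ± 0.32 with SJG and 7.76 ± 0.50 in the diabetic group (SD, n = 3 arrays each). The limma estimate was -1.02 on the log2 scale (standard error 0.26), and its 95% confidence interval ran from -1.59 to -0.45 (unadjusted p = 0.00239, adjusted p = 0.713). By its unadjusted p, Icam1 ranked 58 among the 18166 genes. It was called in all 14 alternative fits, with log2 fold changes between -1.31, without diabetic replicate 3, and -0.84, without SJG replicate 3.

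The bases before the start of Icam1 are shown because Icam1 is a known target of NF-kB. The run below is chr8:27829595-27829844 on the plus strand of GRCr8, the 250 bases before the start site in the RefSeq table, and capitals mark matches to GGAANNNCC on either strand, a short form of the NF-kB site.
Icam1: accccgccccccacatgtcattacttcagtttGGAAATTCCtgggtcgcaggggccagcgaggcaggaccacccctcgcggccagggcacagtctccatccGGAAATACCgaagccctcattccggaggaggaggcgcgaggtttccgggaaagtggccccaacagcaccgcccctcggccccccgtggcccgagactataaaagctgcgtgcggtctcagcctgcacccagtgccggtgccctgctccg
The match farther from the start site, at -218 to -210, reads the same motif on both strands. Neither of the 2 matches fits the full kB consensus, which asks for a further G in front and also limits bases in the middle. Of 33469 promoters of 300 bases in the table (250 before and 50 after the start), 18.3% held GGAANNNCC and 4.18% held the kB consensus, both searched on either strand, and the 2 motifs overlap.

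Nfkbia encodes the inhibitor that binds mainly dimers of Rela and is remade within a short time of NF-kB activation. Its log2 signal (transcript cluster 17821997) was 8.05, 7.87 and 8.01 in SJG replicates 1 to 3, against 8.37, 9.64 and 8.34 in diabetic replicates 1 to 3. The groups did not overlap, the SJG arrays lay close together, and diabetic replicate 2 stood far above the other 2 diabetic arrays. The means were 7.98 ± 0.09 with SJG and 8.78 ± 0.74 in the diabetic group (SD, n = 3 arrays each), and the limma estimate of the log2 fold change was -0.81 (standard error 0.305), its 95% confidence interval running from -1.48 to -0.14 (unadjusted p = 0.0225, adjusted p = 0.765). Without diabetic replicate 2 the log2 fold change of Nfkbia was -0.38 and it was no longer called (limma, unadjusted p = 0.0669). It was also not called without SJG replicate 2, at -0.76 (unadjusted p = 0.0603), or when each gene was tested on its own variance (unadjusted p = 0.134).

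The region before Nfkbia is shown because this gene is a target of the factor that its protein inhibits. The run is chr6:78597073-78597322 of GRCr8, read on the minus strand, with the same marking.
Nfkbia: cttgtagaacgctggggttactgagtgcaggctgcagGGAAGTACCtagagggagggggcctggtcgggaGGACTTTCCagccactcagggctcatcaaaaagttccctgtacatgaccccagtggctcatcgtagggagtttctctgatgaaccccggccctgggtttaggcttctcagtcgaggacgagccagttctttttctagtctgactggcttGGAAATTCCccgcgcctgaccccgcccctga
It held 3 places with a match, and the one at -31 to -23 also lay inside a match to the kB consensus. Its 9 capital letters are the same as those of the far match of Icam1.

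The other inhibitor genes were not called. Nfkbie, which encodes IkB-epsilon, had signals of 5.83, 5.50 and 5.47 in SJG replicates 1 to 3, against 6.16, 6.33 and 5.79 in diabetic replicates 1 to 3. Only diabetic replicate 3 reached into the range of the SJG arrays. With 5.60 ± 0.20 in the SJG group and 6.09 ± 0.27 in the diabetic group (SD, n = 3 arrays each), Nfkbie had a log2 fold change of -0.49 (95% confidence interval -0.93 to -0.06, limma unadjusted p = 0.0294, adjusted p = 0.772). It passed the p threshold but, at 1.41-fold, not the fold threshold, and it was called without SJG replicate 1 (-0.61) and without diabetic replicate 3 (-0.64). Nfkbib, which encodes IkB-beta, had signals of 7.78, 7.17 and 7.67 in SJG replicates 1 to 3, against 7.88, 7.71 and 7.28 in diabetic replicates 1 to 3. These values were fully mixed between the groups. The log2 fold change of Nfkbib was -0.09, and its interval of -0.58 to 0.40 leaves room for changes in both directions.

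None of the 5 subunit genes was called. Rel, which encodes c-Rel, known mainly from lymphoid cells, had signals of 6.48, 6.03 and 6.35 in SJG replicates 1 to 3, against 6.72, 7.26 and 6.41 in diabetic replicates 1 to 3. The groups overlapped only between SJG replicate 1 and diabetic replicate 3. The log2 fold change of Rel was -0.51 (95% confidence interval -1.02 to 0.00, limma unadjusted p = 0.0505, adjusted p = 0.772). Rel was called without SJG replicate 1 (-0.61) and without diabetic replicate 3 (-0.70). Rela, which encodes the main activating subunit p65, measured 8.42, 8.0 and 8.12 in SJG replicates 1 to 3, against 9.08, 8.62 and 8.11 in diabetic replicates 1 to 3. Diabetic replicate 3 lay within the SJG range and the other diabetic arrays above it. The log2 fold change of Rela was -0.42 (95% confidence interval -0.96 to 0.11, limma adjusted p = 0.778), and it was called only when diabetic replicate 3 was left out (-0.67). Relb, the partner of the Nfkb2 product in the slower, non-canonical branch, measured 5.91, 5.26 and 6.0 in SJG replicates 1 to 3, against 5.72, 5.95 and 6.05 in diabetic replicates 1 to 3. Apart from the low value of SJG replicate 2, its groups were alike in range, the log2 fold change was -0.18 (95% confidence interval -0.66 to 0.30), and without that array it was 0.05.

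Nfkb1 and Nfkb2 encode long precursors whose front parts become the DNA-binding subunits p50 and p52 and whose rear parts act as inhibitors. Nfkb1 measured 7.55, 6.99 and 7.50 in SJG replicates 1 to 3, against 7.75, 8.0 and 7.47 in diabetic replicates 1 to 3. SJG replicate 2 was the low value and diabetic replicate 3 fell among the SJG arrays, with a log2 fold change of -0.39 (95% confidence interval -0.86 to 0.07, limma adjusted p = 0.772). Nfkb2 measured 6.12, 6.31 and 6.42 in SJG replicates 1 to 3, against 6.48, 6.56 and 6.51 in diabetic replicates 1 to 3. Its groups did not overlap although its log2 fold change was only -0.23 (95% confidence interval -0.60 to 0.13, limma adjusted p = 0.805), because the diabetic arrays spanned just 0.08 log2 units. Of the 9 genes, 3 had every SJG array below every diabetic array, as had 5.3% of all genes tested. This too is a description only, of genes chosen with earlier results known.

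**Figure D2:**
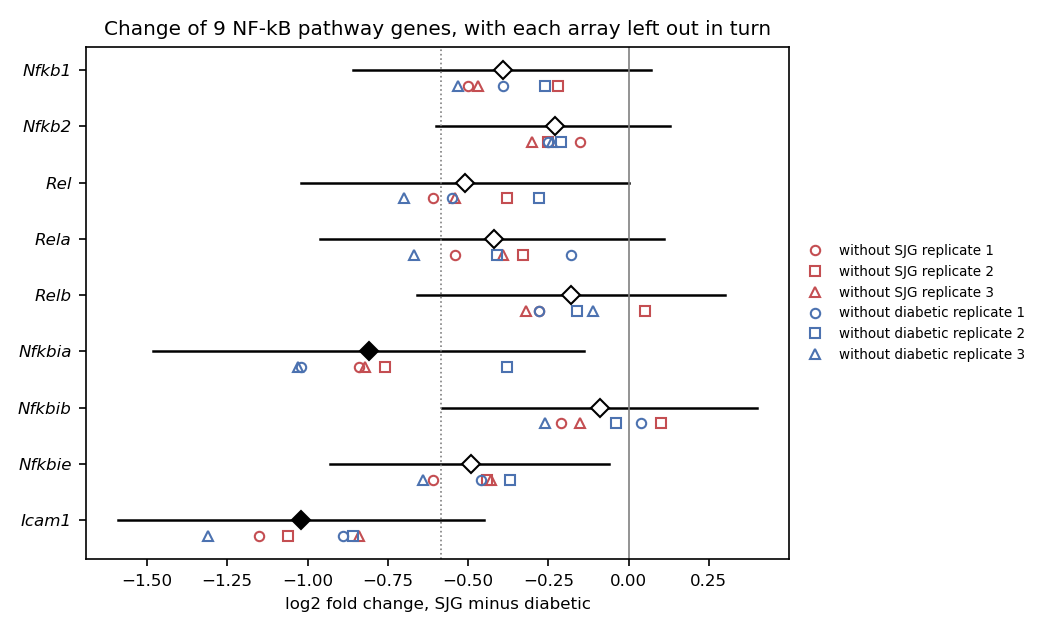
Log2 fold change (SJG minus diabetic) of the 9 genes on the horizontal axis. Diamonds with lines are the limma estimates with 95% confidence intervals, filled where the gene was called, the dotted line marks a 1.5-fold decrease, and open symbols under each line are the estimates without a single array. Icam1 stayed between -1.31 and -0.84, while Nfkbia was at -0.38 without diabetic replicate 2.

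The promoters of these genes differed in whether they held a match to these motifs. Relb had no entry, and Tnfaip3, which was not analysed on the arrays, is counted here. GGAANNNCC was found in 7 of the 9 promoters in the table, those of Nfkb1, Nfkb2, Rel, Nfkbia, Nfkbie, Tnfaip3 and Icam1, and the kB consensus in 6, the same genes without Icam1. Rela and Nfkbib held neither motif in these windows. The capital letters of such sites were selected by the search, so their likeness was in large part fixed in advance. For the genes not yet shown and measured on the arrays, the site inside a match to the consensus is set out below. Each site has 10 bases on each side and is given on the strand of the gene.
Nfkb1: gacgtcagtgGGAATTTCCagccaggaag
Nfkb2: ggtattttcgGGACTTTCCtaagagcact
Rel: gtaggcagcgGGAAATCCCcccccgttcc
Nfkbie: cagcaaacagGGGGATTCCggaggggcgg
The site of Nfkb1 lies at 5 to 13 after the start, and those of Nfkb2, Rel and Nfkbie at -19 to -11, -81 to -73 and -163 to -155 before it. Beside these letters, the log2 fold changes given above were -0.39 for Nfkb1, -0.23 for Nfkb2, -0.51 for Rel and -0.49 for Nfkbie, against -0.42 for Rela and -0.09 for Nfkbib. A match describes the letters only, and binding was not measured.

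Diabetic replicate 2 had the highest signal for 6 of them, diabetic replicate 1 for 2 and diabetic replicate 3 for 1, and no SJG array was highest for any. SJG replicate 2 had the lowest signal for 6 genes, SJG replicate 3 for 2 and SJG replicate 1 for 1, and no diabetic array was lowest for any. Over the 6 arrays, which share group, tissue make-up and processing, the log2 signals of Icam1 and Nfkbie correlated at 0.96 and those of Nfkb1 and Rel at 0.95, whereas Relb and Icam1 correlated at 0.07. Averaged over the 9 genes, the log2 signal was 7.02, 6.66 and 6.88 in SJG replicates 1 to 3, against 7.35, 7.57 and 7.02 in diabetic replicates 1 to 3, so that diabetic replicate 3 equalled the highest SJG array.

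Icam1 and Nfkbia followed different patterns among the diabetic arrays. Icam1 stood 1.28 and 1.33 log2 units above the SJG mean in diabetic replicates 1 and 2, and 0.45 above it in diabetic replicate 3. Nfkbia was 1.66 above the SJG mean in diabetic replicate 2 and only 0.39 and 0.37 above it in diabetic replicates 1 and 3. Other gene lists on the same arrays shared these patterns only in part. Immediate early genes, known to react fast to stress and to how tissue is handled, averaged 6.32, 6.48 and 6.39 in SJG replicates 1 to 3, against 7.23, 8.47 and 6.55 in diabetic replicates 1 to 3. Of their 15 measured members 8 were lower and none was higher, with Atf3 and Egr1 at log2 fold changes of -1.79 and -1.68, and when single arrays were left out the count ranged from 4, without diabetic replicate 2, to 12, without diabetic replicate 3. Without diabetic replicate 2 Atf3 was at -1.03 and Egr1, at -1.0, was not called. Their peak in diabetic replicate 2 is the array in which Nfkbia was highest, and their part in the change of Nfkbia was not tested.

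Macrophage and myeloid markers averaged 6.15, 5.93 and 6.21 in SJG replicates 1 to 3, against 6.93, 7.36 and 6.11 in diabetic replicates 1 to 3. Of 15 markers 8 were lower and none was higher, among them the lysozyme gene Lyz2 at -1.25 and the mannose receptor gene Mrc1 at -1.0. When single arrays were left out the count ranged from 3, without SJG replicate 2 or diabetic replicate 2, to 13, without diabetic replicate 3. Mrc1 was not called when SJG replicate 1 or 2, or diabetic replicate 1 or 2, was left out. In diabetic replicate 3 the marker average lay inside the SJG range, while Icam1 at 7.19 lay above its highest SJG value of 7.01. Tubule injury genes averaged 6.49 to 7.12 with SJG and 7.38 to 8.48 in the diabetic group, with 7 of 11 lower and none higher, or 5 of 11 without diabetic replicate 1. Havcr1 and Lcn2, which encode injury markers of tubule cells, had log2 fold changes of -3.50 and -2.25. Leaving out single arrays moved Havcr1 between -4.64 and -2.83 and Lcn2 between -3.22 and -1.74, with the larger changes without diabetic replicate 3, where Lcn2 at 6.15 lay inside the SJG range of 5.12 to 6.23. With each gene tested on its own variance, 1 gene was called lower in each of the immediate early, myeloid and injury lists. Spp1 in this list and Myc among the immediate early genes are also nodes of the study's network and no independent evidence. The part of leukocyte content and of tubule injury in the lower Icam1 was not tested.

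**Figure D3:**
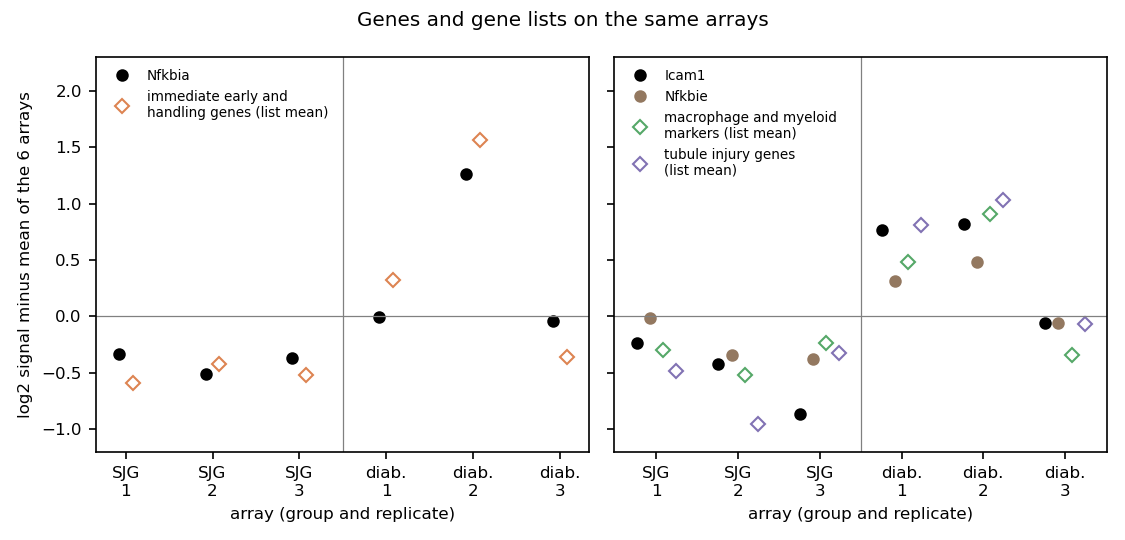
Log2 signal minus its mean over the 6 arrays (vertical axis), by array, for Nfkbia with the average of the immediate early genes at the left, and for Icam1 and Nfkbie with the averages of the myeloid markers and of the tubule injury genes at the right. Filled circles are single genes and open diamonds are list averages. Nfkbia stands out in diabetic replicate 2, and Icam1 is high in diabetic replicates 1 and 2.

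Few markers of other cells were called. Endothelial markers, of cells that carry Icam1, averaged 7.12 to 7.20 with SJG and 7.24 to 7.39 in the diabetic group. Of 9 measured, 0 were called, with Vwf at 0.34 and Emcn at -0.32. A log2 fold change below 0 was found for 7 of the 9, with a list median of -0.16. The listed markers Pecam1, Kdr and Eng were not measured. Neutrophil markers had 0 of 7 called, and averaged 4.14 to 4.56 with SJG and 4.20 to 4.52 in the diabetic group. Of 9 markers of T and B cells only Cd4, which rat macrophages also express, was called lower, at -1.24, while 8 had a log2 fold change below 0. Markers of the proximal tubule (10 genes), thick limb and distal tubule (6), collecting duct (6) and podocytes (4) had 0 called by limma. Their median log2 fold changes were 0.03, 0.26, 0.03 and 0.09. The thick limb and distal list averaged 9.58 to 9.90 with SJG and 9.37 to 9.50 in the diabetic group, with 1 of 6 genes below 0. The adipocyte list averaged 8.0 in SJG replicate 2, against 6.81 to 6.98 in the other SJG arrays and 6.75 to 6.84 in the diabetic group. Adipoq was the 1 of 8 genes called, at 0.68, or 0 of 8 without SJG replicate 2. Adipoq was also not called without diabetic replicate 1 or without diabetic replicate 3. Of 4 red blood cell genes Hba-a1 and Hbb-b1 were higher, at 1.2 and 1.39, and Hbb-b1 was not called without SJG replicate 2 (0.98) or without diabetic replicate 1 (0.83). With each gene tested on its own variance, 0 genes of these endothelial, blood, tubule, podocyte and adipocyte lists were called. SJG replicate 2 was also the array with the lowest signal for most NF-kB genes, and the part of tissue composition in this was not tested.

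Upstream of NF-kB little was called. In the IKK complex and its kinases 0 of 9 measured genes were called, with a median log2 fold change of -0.09. Ikbkb and Chuk, which encode the catalytic subunits, had log2 fold changes of -0.11 and 0.14, and Tab2 and Map3k7, adaptor and kinase of the step above, had -0.33 and -0.29. Of 17 receptor adaptors and ubiquitin ligases 12 had a log2 fold change below 0. Only 1 was called lower, Irak3, which encodes a brake on Toll-like and interleukin-1 receptor signalling. Irak3 measured 5.72, 5.68 and 5.78 in SJG replicates 1 to 3, against 6.56, 6.78 and 5.89 in diabetic replicates 1 to 3. Its log2 fold change was -0.68 (standard error 0.225, limma adjusted p = 0.746), and it was not called without diabetic replicate 2 (-0.50). Irak4, the kinase that Irak3 restrains, had -0.41 and was not called.

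Among 16 other IkB-like proteins and inhibitors, 2 were lower and none was higher, with a list median of -0.20. Nfkbiz encodes the nuclear protein IkB-zeta, which is induced by NF-kB and helps to switch on a second set of its targets. Nfkbiz measured 5.25, 5.23 and 5.39 in SJG replicates 1 to 3, against 6.67, 8.10 and 5.81 in diabetic replicates 1 to 3. The SJG arrays were nearly equal, all diabetic arrays lay above them, and diabetic replicate 2 was the highest, as for Nfkbia. The log2 fold change was -1.57 (standard error 0.435, limma adjusted p = 0.746), and -0.95 and still called without that array. Bcl3, which encodes a nuclear IkB-like partner of the p50 and p52 dimers, had -0.66 (standard error 0.232, limma adjusted p = 0.752) with groups that did not overlap, and was not called without SJG replicate 2 (-0.53) or without diabetic replicate 1 (-0.44).

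Of 32 measured target genes of NF-kB other than those above, 5 were lower, none was higher and 27 were not called, with a median log2 fold change of -0.36. Over all genes tested, 2.12% were called lower. A log2 fold change below 0 was found for 22 of the 32, and for 49.7% of all genes tested. The highest value was that of Sod2, at 0.38, which was not called. The largest changes were those of Lcn2, and of C3, the central complement component, at -1.71. The others were Birc3, which encodes an inhibitor of apoptosis, at -1.56, the chemokine gene Ccl2 at -1.38 and the macrophage growth factor gene Csf1 at -0.79. When single arrays were left out, the count of lower target genes ranged from 4 to 13. It was 4 without SJG replicate 2 or diabetic replicate 2, and 13 without diabetic replicate 3. Without diabetic replicate 3 the count over all genes also rose, from 385 to 1014 called lower. Csf1 was not called without SJG replicate 2 (-0.55), without diabetic replicate 1 (-0.65) or without diabetic replicate 2 (-0.58), nor Ccl2 without SJG replicate 1 (-1.16). Without diabetic replicate 2 Ccl2 had -0.70. The cytokine genes Tnf, Il6 and Il1b were not called, at 0.10, -0.35 and -0.82. Il6 and Il1b had their highest signals, 5.22 and 6.17, in diabetic replicate 2. With each gene tested on its own variance 2 target genes were called lower, and none of the adaptors or of the other inhibitors.

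Of the other adhesion molecules and integrin partners of Icam1, 2 of 14 were lower and none was higher, or 1 of 14 with each gene tested on its own variance. Itgam and Itgal encode the alpha chains of Mac-1 and LFA-1, the integrins that bind Icam1. They were lower at -0.77 and -0.70 on the log2 scale, with standard errors of 0.229 and 0.284. Itgam had low signals, at 3.58 to 3.92 with SJG and 4.02 to 4.86 in the diabetic group. Among genes above the median signal, 1 gene of this list was called. Itgal was not called without SJG replicate 2 (-0.55), without diabetic replicate 1 (-0.51) or without diabetic replicate 2 (-0.54). Itgam is also counted among the myeloid markers above, as Lcn2 is among both the targets and the injury genes, and the part of leukocyte content in the integrin values was not tested. The gene of their shared beta chain, Itgb2, had -0.45 and was not called. Vcam1, Sele and Selp, other NF-kB targets of the vessel wall, had -0.45, -0.06 and -0.42 and were not called.

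**Figure D4:**
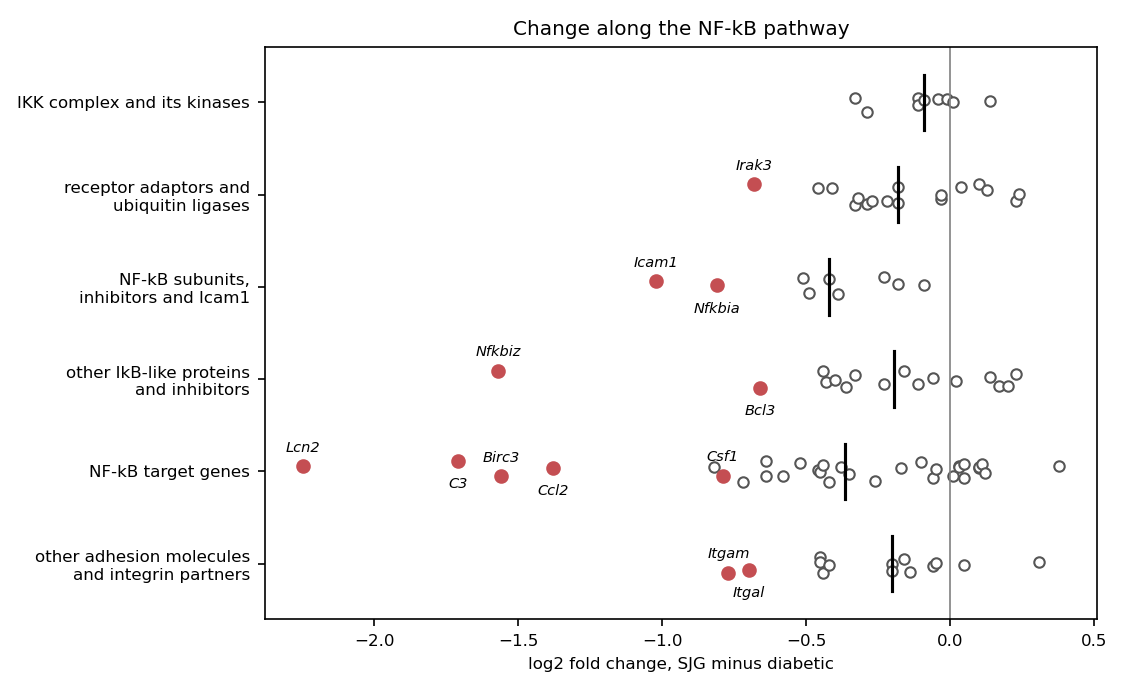
Log2 fold change (SJG minus diabetic, horizontal axis) of each measured gene in 6 groups along the NF-kB pathway, 1 row per group. Filled red circles are called genes with their names, open circles are genes not called, and vertical bars are group medians, from -0.09 for the IKK complex to -0.42 for the NF-kB subunits, inhibitors and Icam1. All called genes lie below 0.

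Across 9011 genes of above-median signal, those whose log2 signal over the 6 arrays was most like that of Icam1 were Meis2, Cbl, Supt20h, Ptprs and Tlcd3a, with Pearson correlations of 0.977 to 0.985. Those most like Nfkbia were B4galt1, Bace2, Btbd7, Sfrp1 and Tes, with correlations of 0.990 to 0.999. B4galt1 had a log2 fold change of -0.25, against -0.81 for Nfkbia, and was not called. With 6 arrays in 2 groups and so many genes searched, such values describe likeness in these arrays only.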

How the data were processed

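Affymetrix Rat Gene 2.0 ST arrays read kidney RNA in 3 samples of the SJG group and 3 of the diabetic group. The values that the authors deposited, one for every transcript cluster on every array, were treated as log2, judged from their range. Background correction and normalization were, as to method, not given in the sources used here. No detection calls are used, and precision is limited by how few arrays there are. Of 36685 transcript clusters, 18511 carried 1 gene symbol in the array's annotation, 575 several and 17599 none. Symbols were updated through gene numbers against GRCr8 (18394 matched), and the brightest cluster stood for each of 18166 genes.

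Groups were compared with limma 3.58.1 in R 4.3.3 (lmFit and eBayes, SJG minus diabetic, prior degrees of freedom 6.94), fitted across all genes and adjusted by Benjamini-Hochberg. A gene was called where its unadjusted p was under 0.05 and its fold change exceeded 1.5, the thresholds of the study's methods, which name no test for the arrays. The code was checked on simulated data. The genes described here and the lists set beside them were chosen with earlier results of these data known. Genes named from a list were those called with the largest change, at most 2 in each direction, or the smallest p where fewer than 2 were called, and others, named to complete a count of 5 or fewer or for their known role, were chosen after their values were seen. Promoter sequences came from a RefSeq table of GRCr8, in which all but Relb of the listed genes had an entry. Alternatives were another variance model, normalization, filter, weights, fold threshold or cluster rule, a block for the replicate number, and leaving out each array.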

Additional observations from a re-analysis of the deposited data

How the results depend on the processing

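Of 14 alternative fits, Icam1 was called in every one, Nfkbia in 11, and Nfkb1, Nfkb2, Relb and Nfkbib in none. With the unmoderated test 1 of the 9 genes was called lower, with a fold change above 2 also 1, and with an adjusted p under 0.05 over all genes 0. Leaving out single arrays gave 1 to 5 genes called lower, and ranges of -0.32 to 0.05 for Relb and -0.26 to 0.10 for Nfkbib, whose direction turned without SJG replicate 2 and, for Nfkbib, without diabetic replicate 1. Over all genes the called numbers, lower and higher, were 77 and 76 with the unmoderated test, 236 and 90 among genes above the median signal, 654 and 479 at a fold change above 1.2, 81 and 25 above 2, and 0 and 0 at an adjusted p under 0.05. Leaving out single arrays gave 223 to 1014 genes lower and 170 to 435 higher, both most without diabetic replicate 3. With the replicate number as a block, 2 of the 9 genes and, over all genes, 443 lower and 191 higher were called. Deviations from the group means correlated at -0.024, -0.29 and -0.001 for numbers 1, 2 and 3, and at -0.255 to 0.288 between unlike numbers. This gave no sign that the numbers pair the arrays, but with so few arrays it cannot exclude it. With 3 arrays a group and signals of unknown background, small changes can be missed. The interval given for a gene shows the range of changes that its values allow.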
